A study of Homo sapiens with 8 samples.

Results

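Potassium channel genes were examined in 22Rv1, an established human prostate carcinoma line, and in its tumour-derived and metastasis-derived sublines. The set comprised every gene whose platform symbol begins with KCN followed by a letter from A to V, leaving out 3 antisense or intronic transcripts, and held 89 genes (161 probes) of the 20046 genes named on the arrays. The 8 single-colour Illumina bead arrays formed 4 groups of 2: the metastatic derivatives M3-2 and M3-1, a primary tumour derivative (22Rv1-PT), and parental cells carrying a luciferase label (22Rv1-Luc2). The labels give neither a host animal nor the site of a metastasis. They also do not say that paired arrays represent separate cultures, and the p-values therefore reflect array-to-array spread that could be purely technical. Each group is 1 derivative line, and in bulk RNA fewer cells of a type and less RNA per cell cannot be told apart.

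Potassium channels let potassium ions leave or enter the cell along their electrochemical gradient and thereby set the membrane potential, cell volume and excitability. Voltage-gated channels open on depolarisation, inward rectifiers and two-pore-domain channels hold the resting potential, and calcium-activated channels couple intracellular calcium to the membrane. Auxiliary subunits do not form the pore but alter trafficking and gating of the pore subunits. In prostate cancer cells these channels have been studied for their part in proliferation and calcium entry.

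Most of the family lay at the background of the arrays. A probe was taken as above background where its log2 intensity exceeded 6.55 on at least 2 arrays. Such a probe was held by 28 of the 89 genes, against 12244 of all 20046 genes named on the arrays. The voltage-gated alpha subunits contributed 9 of 35 genes, the inward rectifiers 4 of 15, the two-pore-domain channels 6 of 15, the calcium- and sodium-activated channels 2 of 7 and the auxiliary subunits and regulators 7 of 17. The other 61 genes, with 101 probes, had log2 intensities between 5.57 and 6.67 with a median of 6.11, and were not tested. When dim probes were not filtered out, 1 of them passed: KCNT1, a sodium-activated channel gene, had 6.09 and 5.97 in M3-2, 6.16 and 5.71 in M3-1 and 6.20 and 6.14 in the primary tumour, against 6.67 and 6.50 in parental cells (limma adjusted p = 0.0063 for the metastatic lines against parental cells). Its probe exceeded the background level on 1 array, of parental cells.

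Among the voltage-gated genes not above background were the members KCNA1, KCNA3 to KCNA7 and KCNA10 on the arrays, KCNB2, KCNC1, KCNC2, KCNF1, KCNQ1, KCNQ3, KCNQ5, KCNH1 and KCNV1. Among the inward rectifiers they were KCNJ1, KCNJ2, KCNJ5, KCNJ6, KCNJ9 and KCNJ11 to KCNJ16. KCNK2, KCNK9 and KCNK10 of the two-pore-domain channels, KCNN1 and KCNN3 of the small-conductance calcium-activated channels, and KCNE1 to KCNE5 of the auxiliary subunits were also not above background.

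**Figure D1:**
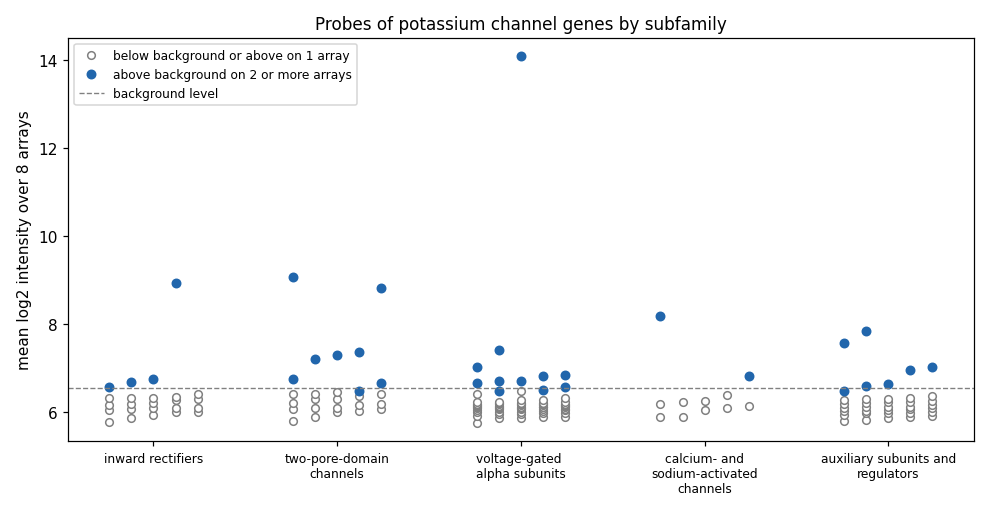
Mean log2 intensity over the 8 arrays (vertical axis) of each of the 161 probes, by subfamily; filled points are the 32 probes above background on at least 2 arrays, open points the others, and the dashed line is the background level of 6.55. Most probes lie under the line, and 1 probe of KCNH6 stands far above all others at 14.10.

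Differences were tested with limma over all 12244 genes above background, and a gene with an adjusted p below 0.05 is called changed. Between the metastatic lines, taken as the mean of M3-2 and M3-1, and parental cells, 8 of 28 members changed (28.6%), against 13.8% of all genes tested. Of these, 4 rose, against 6.37% of all genes, and 4 fell, against 7.39%. The median difference over the 28 members was 0.01 on the log2 scale, and over all genes it was 0.00071. Between the metastatic lines and the primary tumour 7 members changed (background 11.8%), 3 higher (5.34%) and 4 lower (6.44%). Between the primary tumour and parental cells 4 members changed (background 6.89%), 1 higher (3.42%) and 3 lower (3.47%). Between M3-2 and M3-1 there were 2 changed members (background 2.47%), both higher in M3-2 (background 1.41%) and none lower (1.05%). Of the 28 members, KCNG1, KCNS3, KCNC4, KCND1, KCND2, KCND3 and KCNAB2 were at or under the background level on every array of at least 1 group, and so passed the filter only through the groups in which they were brighter. The comparisons share arrays, and their counts are therefore not independent.

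**Figure D2:**
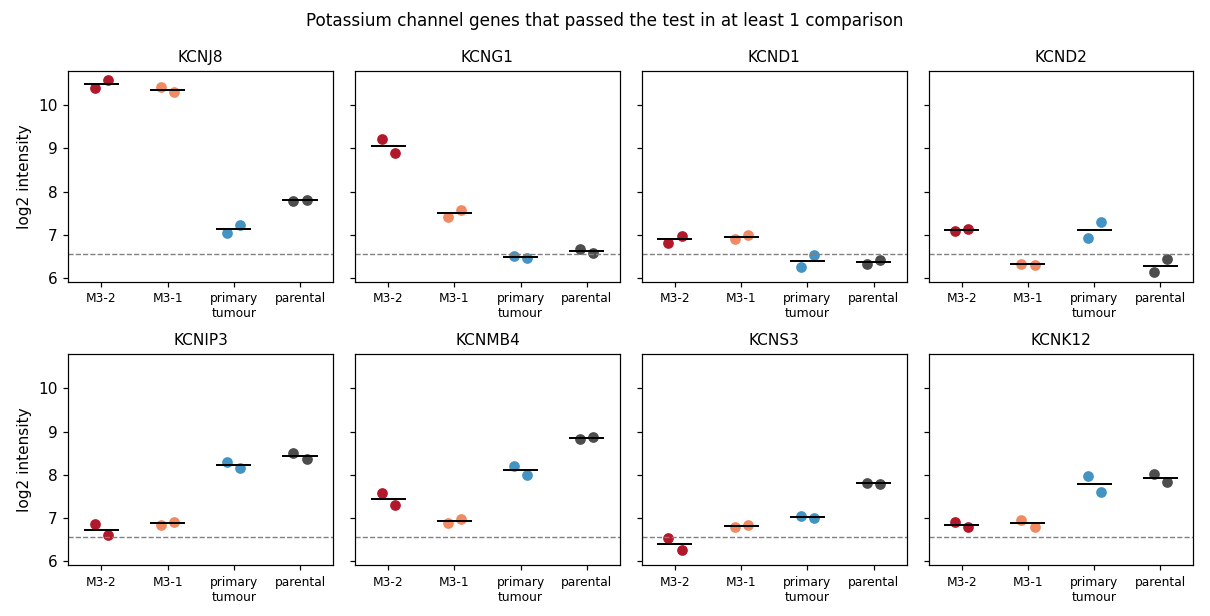
Log2 intensity (vertical axis, shared) on each array for the 8 members that changed in at least 1 comparison; points are arrays, short black lines are means of 2 arrays, and the dashed line is the background level of 6.55. KCNJ8 lies above 10 in both metastatic lines, KCNG1 differs between those lines, and KCNIP3, KCNMB4 and KCNK12 are lower in both of them than in the other groups.

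KCNJ8 encodes an inward rectifier that forms the pore of ATP-sensitive potassium channels, best known in vascular smooth muscle and pericytes. Its log2 intensity was 10.41 and 10.57 in M3-2, 10.41 and 10.31 in M3-1, and 7.04 and 7.22 in the primary tumour, against 7.77 and 7.82 in parental cells. Both metastatic lines were high on every array, the primary tumour was lowest, and no array of the metastatic lines overlapped with another group. KCNJ8 was measured by 1 probe, as were KCND1, KCND2, KCNK12 and KCNMB4, so their values could not be set against another probe.

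In the metastatic lines KCNJ8 averaged 10.43 ± 0.11 (SD, n = 4 arrays, 2 of each line), against 7.79 ± 0.03 (SD, n = 2) in parental cells. The first SD therefore also holds the difference between the lines. The metastatic lines were 6.20-fold higher than parental cells (log2 difference 2.63, SE 0.11; limma adjusted p = 2.49e-09). Only 17 of the genes tested had a larger absolute difference in this comparison. Relative to the primary tumour, at 7.13 ± 0.13 (n = 2), the metastatic lines were 9.82-fold higher (log2 difference 3.30, SE 0.11; limma adjusted p = 9.19e-10). No other gene of the 12244 rose by more there, and only 1 gene had a larger absolute difference. In the primary tumour KCNJ8 was 1.58-fold lower than in parental cells (log2 difference -0.66, SE 0.13; limma adjusted p = 0.00607). That call was lost without primary tumour replicate 1, with an adjusted p of 0.103. M3-2 and M3-1 differed by 0.13 (95% interval -0.15 to 0.41; limma adjusted p = 0.852), so a difference was not shown.

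The sequence upstream of the annotated KCNJ8 start is shown because this gene had the largest rise of any member. It is followed by those of KCNIP3, which fell in both metastatic lines, and KCND2, which differed between them. RefSeq promoter entries (GRCh38.p14) were found for 5 of the 8 changed members, and the 250 bases before the start are printed 5′ to 3′ on the gene's strand. Capitals mark the GC box GGGCGG and the CCAAT box CCAAT, on either strand.
KCNJ8, chr12:21774707-21774956, minus strand: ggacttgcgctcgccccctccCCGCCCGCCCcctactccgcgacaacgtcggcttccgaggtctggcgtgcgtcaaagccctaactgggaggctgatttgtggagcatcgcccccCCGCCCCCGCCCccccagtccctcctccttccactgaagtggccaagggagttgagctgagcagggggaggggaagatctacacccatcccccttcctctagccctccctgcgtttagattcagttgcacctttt
KCNIP3, chr2:95346408-95346657, plus strand: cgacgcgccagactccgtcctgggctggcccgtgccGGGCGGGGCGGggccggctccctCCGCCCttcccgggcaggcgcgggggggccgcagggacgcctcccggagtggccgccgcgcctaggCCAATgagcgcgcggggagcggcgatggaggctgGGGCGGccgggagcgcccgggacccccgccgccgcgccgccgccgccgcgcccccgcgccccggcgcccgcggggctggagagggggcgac
KCND2, chr7:120272925-120273174, plus strand: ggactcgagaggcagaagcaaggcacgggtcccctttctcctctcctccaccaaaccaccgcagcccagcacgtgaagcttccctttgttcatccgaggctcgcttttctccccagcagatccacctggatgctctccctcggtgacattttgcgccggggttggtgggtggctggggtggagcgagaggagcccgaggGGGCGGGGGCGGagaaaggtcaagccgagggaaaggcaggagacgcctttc

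The GC box was matched 4 times in the KCNJ8 window, 4 times in that of KCNIP3 and 2 times in that of KCND2, some of the matches overlapping, and 42.6% of the 35116 promoter windows of the same length held at least 1 match. The CCAAT box was matched 1 time in the KCNIP3 window and not in the windows of KCNJ8 and KCND2, against 32% of all windows. The GC content was 64.8% for KCNJ8, 86.0% for KCNIP3 and 63.6% for KCND2, against a median of 58.0% over all windows. The letters of the TATA box (TATAAA, in 10.7% of all windows), the AP-1 site (TGANTCA, 6.57%) and the antioxidant response element (TGACNNNGC, 10.9%), searched on both strands, were in none of these 3 windows. TGACG, the core of the cAMP response element, was matched 1 time in the KCNJ8 window and is held by 21.2% of all windows.

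ABCC9, which lies next to KCNJ8 in the annotation, encodes the sulphonylurea receptor that pairs with it. Its log2 intensity was 6.27 and 6.27 in M3-2, 6.53 and 6.62 in M3-1, 6.12 and 6.13 in the primary tumour, and 6.19 and 6.74 in parental cells. Single arrays of M3-1 and of parental cells exceeded the background level, and ABCC9 did not pass in any comparison (limma adjusted p = 0.894 for the metastatic lines against parental cells). ABCC8, the other sulphonylurea receptor gene, was not above background.

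KCNJ8 is a marker of pericytes, and the list of 10 pericyte and smooth muscle markers was set beside it. PDGFRB, MYH11, CNN1, MCAM, CSPG4 and DES were not above background, and 4 markers were. The summed intensity of the list was 1307 to 1313 in M3-2, 1349 to 1359 in M3-1, 1399 to 1406 in the primary tumour and 1358 to 1457 in parental cells. TAGLN was higher and NOTCH3 lower in the metastatic lines than in the parental arrays, and no other marker of this list passed in that comparison. The summed intensity of the fibroblast list was 3537 to 4271 in M3-2 and 2865 to 3310 in M3-1, against 832 to 993 in the primary tumour and 621 to 676 in parental cells. Of its 8 markers 3 were above background, of which LUM (log2 difference between the metastatic lines and parental cells 4.61; limma adjusted p = 3.98e-09) and DCN (0.55; adjusted p = 0.00338) rose and COL1A1 did not pass. In the primary tumour, where KCNJ8 was lower than in parental cells, LUM was 2.84-fold higher (limma adjusted p = 0.00146). The markers COL1A2, COL3A1, PDGFRA, FAP and THY1 were not above background. LUM had log2 intensities of 11.52 and 11.85 in M3-2 and 11.41 and 11.17 in M3-1. DCN and COL1A1 stood between 6.64 and 7.27 on those arrays, so the summed intensity there mostly reflects LUM. The part of fibroblast markers in the KCNJ8 difference was not tested. None of the 7 endothelial markers was above background. Of 9 luminal prostate markers on the arrays 8 were above background, and KLK3 was not. Relative to parental cells, KRT8 (log2 difference 0.63), KRT18 (0.91) and FOLH1 (1.16) rose in the metastatic lines and TMPRSS2 fell (-0.93), with limma adjusted p-values of 0.00173, 8.00e-05, 0.000394 and 0.000213 in that order. Their part in the KCNJ8 difference was not tested.

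The other inward rectifiers above background, KCNJ10, KCNJ18 and KCNJ4, stood between 6.33 and 7.05 on all arrays and did not pass in any comparison. Their differences between the metastatic lines and parental cells ran from -0.01 to 0.02. The probe of KCNJ18 may not separate it from the near-identical KCNJ12.

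KCNG1 encodes a modifier subunit that forms no channel alone and joins voltage-gated subunits of the KCNB type. Its log2 intensity was 9.21 and 8.90 in M3-2, 7.42 and 7.58 in M3-1, and 6.50 and 6.46 in the primary tumour, against 6.68 and 6.59 in parental cells. M3-2 was highest, M3-1 lay between, and the primary tumour was not above background. The metastatic lines were 3.13-fold higher than parental cells (log2 difference 1.65, SE 0.12; limma adjusted p = 4.03e-07) and at least 3.31-fold higher than the primary tumour (limma adjusted p = 4.09e-07), where the bound is set against the background level. M3-2 was 2.94-fold higher than M3-1 (log2 difference 1.55, SE 0.14; limma adjusted p = 1.66e-05). A second KCNG1 probe was at background on every array, and KCNB2 was not above background.

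KCNS3, which also encodes a modifier subunit for KCNB-type channels, moved in the opposite direction. Its log2 intensity was 6.53 and 6.26 in M3-2, 6.79 and 6.83 in M3-1, and 7.06 and 7.01 in the primary tumour, against 7.81 and 7.79 in parental cells. The 4 groups did not overlap, with parental cells highest and M3-2 not above background. The metastatic lines were at least 2.18-fold lower than parental cells (log2 difference -1.20, SE 0.11; limma adjusted p = 4.59e-06). The primary tumour was 1.71-fold lower than parental cells (log2 difference -0.77, SE 0.13; limma adjusted p = 0.00208). Relative to the primary tumour the metastatic lines were at least 1.28-fold lower (limma adjusted p = 0.0235). That call was lost without primary tumour replicate 1 (adjusted p = 0.208) or 2 (0.139), without M3-1 replicate 1 (0.0961) or 2 (0.0807), and without M3-2 replicate 2 (0.0609). The second KCNS3 probe stood at 6.38 and 6.14 in M3-2, 6.59 and 6.55 in M3-1, 7.15 and 6.82 in the primary tumour, and 7.62 and 7.36 in parental cells, in the same order of groups.

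KCND1, KCND2 and KCND3 encode the pore subunits of rapidly inactivating A-type channels. KCND2 had log2 intensities of 7.09 and 7.13 in M3-2, 6.33 and 6.31 in M3-1, and 6.93 and 7.31 in the primary tumour, against 6.13 and 6.43 in parental cells. It was above background in M3-2 and the primary tumour on every array and in M3-1 and parental cells on none. The primary tumour was at least 1.48-fold higher than parental cells (limma adjusted p = 0.00358), and M3-2 was at least 1.47-fold higher than M3-1 (log2 difference 0.79, SE 0.15; limma adjusted p = 0.0101). The first of these calls was lost without primary tumour replicate 2 (adjusted p = 0.0693). The second was lost without either array of M3-1 (0.139 and 0.148 without replicates 1 and 2) or of M3-2 (0.0974 and 0.0793).

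The mean KCND2 value of both metastatic lines exceeded that of parental cells by 0.43 on the log2 scale (limma adjusted p = 0.0425). No fold is given, since both M3-1 and parental cells were not above background, and their arrays overlapped. That call was lost without parental replicate 1 (adjusted p = 0.217), without M3-1 replicate 1 (0.128) or 2 (0.118) and without M3-2 replicate 1 (0.0862) or 2 (0.0952). Relative to the primary tumour the metastatic lines had a KCND2 difference of -0.41, which did not pass (limma adjusted p = 0.0611).

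KCND1 had log2 intensities of 6.80 and 6.98 in M3-2, 6.90 and 6.99 in M3-1, and 6.26 and 6.54 in the primary tumour, against 6.33 and 6.43 in parental cells. It was above background on the 4 metastatic arrays and on no other. The metastatic lines were at least 1.29-fold higher than parental cells (log2 difference 0.54, SE 0.12; limma adjusted p = 0.00653) and at least 1.29-fold higher than the primary tumour (limma adjusted p = 0.0109). The call against the primary tumour was lost without primary tumour replicate 1 (adjusted p = 0.228) and without M3-1 replicate 2 (0.0577). KCND3 ranged from 6.34 to 6.62 over the 8 arrays and did not pass.

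KCNIP3 encodes a calcium-binding protein that associates with KCND-type channels and also acts as a transcriptional repressor in the nucleus. Its log2 intensity was 6.86 and 6.61 in M3-2, 6.84 and 6.91 in M3-1, and 8.31 and 8.17 in the primary tumour, against 8.50 and 8.36 in parental cells. Both metastatic lines were low on every array, and the primary tumour arrays lay just under those of parental cells without overlap. The metastatic lines were 3.08-fold lower than parental cells (log2 difference -1.62, SE 0.12; limma adjusted p = 3.72e-07) and 2.70-fold lower than the primary tumour (log2 difference -1.43, SE 0.12; limma adjusted p = 2.20e-06). The primary tumour had a difference of -0.19 from parental cells, which did not pass (95% interval -0.48 to 0.10; limma adjusted p = 0.489). Neither of the other 2 KCNIP3 probes passed the background filter. KCNIP1, KCNIP2 and KCNIP4 were not above background.

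The large-conductance calcium-activated channel is built from a pore subunit encoded by KCNMA1 and from beta and gamma subunits that alter its gating. KCNMA1 was the brightest of the calcium- and sodium-activated genes, with 8.31 and 8.05 in M3-2, 8.11 and 8.10 in M3-1, and 7.91 and 8.04 in the primary tumour, against 8.28 and 8.60 in parental cells. These values come from its brightest probe, and the other KCNMA1 probes, between 6.06 and 6.43, exceeded the background level on no array. The differences of the brightest probe from parental cells were -0.30 in the metastatic lines (95% interval -0.57 to -0.03; limma adjusted p = 0.155) and -0.46 in the primary tumour (95% interval -0.77 to -0.15; limma adjusted p = 0.0765), and neither passed. Without parental replicate 1 both passed, with adjusted p-values of 0.0322 in the metastatic lines and 0.0136 in the primary tumour.

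KCNMB4, the beta subunit known from neurons, had 7.57 and 7.31 in M3-2, 6.89 and 6.97 in M3-1, and 8.20 and 8.0 in the primary tumour, against 8.83 and 8.86 in parental cells. No group overlapped with another, and M3-1 was lowest. The metastatic lines were 3.17-fold lower than parental cells (log2 difference -1.66, SE 0.12; limma adjusted p = 3.32e-07) and 1.89-fold lower than the primary tumour (limma adjusted p = 0.000145). The primary tumour was 1.68-fold lower than parental cells (limma adjusted p = 0.00363), a call lost without primary tumour replicate 2 (adjusted p = 0.0633). M3-2 exceeded M3-1 by 0.51, which did not pass (limma adjusted p = 0.0696) but passed without parental replicate 1 or 2 (0.0275 in each case).

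KCNMB2 and KCNMB3 ranged from 6.88 to 7.11 and did not pass in any comparison, and KCNMB1 was not above background. LRRC26, a gamma subunit gene, went the other way from KCNMB4, with 12.19 and 12.23 in M3-2, 11.99 and 11.73 in M3-1, and 11.95 and 11.83 in the primary tumour, against 11.23 and 10.89 in parental cells. Relative to parental cells it was 1.97-fold higher in the metastatic lines (limma adjusted p = 9.81e-05) and 1.78-fold higher in the primary tumour (limma adjusted p = 0.00289).

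**Figure D3:**
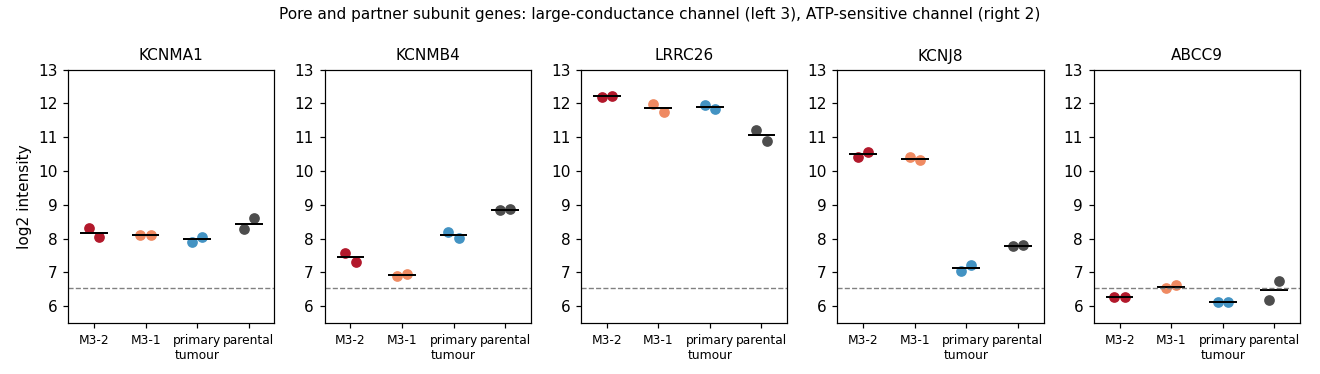
Log2 intensity on each array for the large-conductance channel genes KCNMA1 (pore), KCNMB4 (beta subunit) and LRRC26 (gamma subunit), and for the ATP-sensitive channel genes KCNJ8 (pore) and ABCC9 (sulphonylurea receptor); points are arrays, short black lines are means of 2 arrays and the dashed line is the background level of 6.55. KCNMB4 is lower and LRRC26 higher in the derivatives than in parental cells, and KCNJ8 is high in both metastatic lines while ABCC9 stays near background.

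KCNIP3 and KCNMB4 are neuronal genes, and a list of neuroendocrine markers was set beside them. Of 11 such markers on the arrays 9 were above background, and 7 of them fell in the metastatic lines relative to parental cells, with none higher, against 7.39% lower and 6.37% higher among all genes tested. Their summed intensity was 2773 to 2799 in M3-2, 2566 to 2591 in M3-1 and 2833 to 2871 in the primary tumour, against 4464 to 4972 in parental cells. NCAM1 and SYT1 were not above background. In the primary tumour 6 markers fell and none rose relative to parental cells, against 3.47% lower and 3.42% higher among all genes. KCNMB4 was also lower there, while KCNIP3 did not pass (log2 difference -0.19, limma adjusted p = 0.489). Of 5 erythroid markers on the arrays 3 were above background, and HBB and ALAS2 were not. HBA1 and HBA2 fell in the metastatic lines relative to parental cells, against 7.39% lower among all genes tested. AHSP did not pass there (log2 difference 0.01, limma adjusted p = 0.971). The erythroid sum was 776 to 844 in M3-2 and 470 to 509 in M3-1. It was 1322 to 1439 in the primary tumour and 2224 to 2692 in parental cells. The part of these markers in the KCNIP3 and KCNMB4 differences was not tested.

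KCNK12 belongs to the two-pore-domain channels. Its log2 intensity was 6.92 and 6.78 in M3-2, 6.96 and 6.79 in M3-1, and 7.97 and 7.60 in the primary tumour, against 8.02 and 7.83 in parental cells. The metastatic arrays were all below those of the other groups, and primary tumour and parental arrays overlapped. The metastatic lines were 2.09-fold lower than parental cells (log2 difference -1.06, SE 0.13; limma adjusted p = 5.57e-05) and 1.90-fold lower than the primary tumour (log2 difference -0.92, SE 0.13; limma adjusted p = 0.00030).

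KCNK1, a weak background channel, was the brightest two-pore-domain gene, with 9.63 and 9.19 in M3-2, 8.89 and 8.97 in M3-1, and 9.04 and 8.88 in the primary tumour, against 9.11 and 8.89 in parental cells. It did not pass in any comparison, and its widest difference, 0.48 between M3-2 and M3-1, had a limma adjusted p of 0.188, which became 0.0445 with array weights. Both KCNK1 probes were highest in M3-2. KCNK3, KCNK4, KCNK5 and KCNK6 did not pass, with differences between the metastatic lines and parental cells that, KCNK1 included, ran from -0.24 to 0.17.

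The brightest probe of the whole family was 1 of 3 for KCNH6, a channel of the ether-a-go-go-related type. It had log2 intensities between 13.88 and 14.32 on the 8 arrays, in the top percentile of the genes tested, and this probe did not pass in any comparison (difference of the metastatic lines from parental cells -0.05, 95% interval -0.33 to 0.24). The other KCNH6 probes did not bear this level out, and one of them ranged from 5.94 to 6.23. The other stood at 6.46 and 6.36 in M3-2, 6.24 and 6.33 in M3-1 and 6.25 and 6.42 in the primary tumour, against 6.96 and 6.67 in parental cells. With every probe tested on its own, the metastatic lines were lower for that probe (log2 difference from parental cells -0.47; limma adjusted p = 0.02), which was above background in parental cells alone. The level of KCNH6 is therefore not settled by these arrays. KCNH2, a gene of the same group that is best known from the heart, ranged from 6.52 to 7.08 and did not pass.

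**Figure D4:**
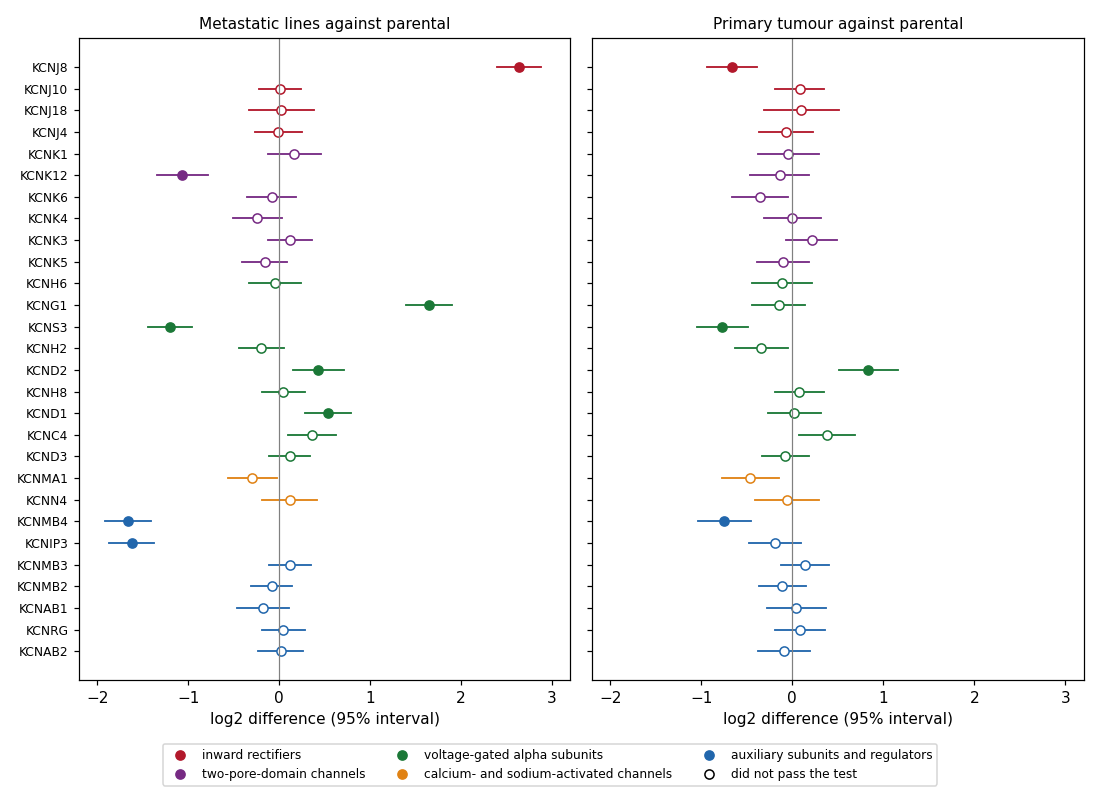
Log2 difference (horizontal axis) with its 95% interval for the 28 members above background, in the metastatic lines against parental cells (left) and in the primary tumour against parental cells (right); colours are subfamilies and filled points passed the test. In the left panel KCNJ8, KCNG1, KCND1 and KCND2 are filled to the right of 0 and KCNK12, KCNS3, KCNMB4 and KCNIP3 to the left; in the right panel KCND2 is filled to the right and KCNJ8, KCNS3 and KCNMB4 to the left.

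The 20 members above background that passed in no comparison had differences between the metastatic lines and parental cells from -0.30 to 0.36. KCNC4, the member with the widest of these, was not above background in parental cells (6.31 and 6.29) and had 6.67 and 6.88 in M3-2, 6.36 and 6.73 in M3-1 and 6.67 and 6.69 in the primary tumour (limma adjusted p = 0.073 for the metastatic lines against parental cells, and 0.0397 with an intensity trend in the prior variance). The other KCNC4 probes exceeded the background level on no array. The gene was singled out after its values were seen. Of the others not described above, KCNN4, an intermediate-conductance calcium-activated channel gene, ranged from 6.52 to 7.07 over the 8 arrays. KCNH8 ranged from 6.55 to 6.77, and the auxiliary genes KCNAB1, KCNAB2 and KCNRG from 6.20 to 6.80.

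Partners of the channels and other potassium carriers were measured beside them. Of 27 genes of this list on the arrays 15 were above background, and 3 rose and none fell in the metastatic lines relative to parental cells, against 6.37% higher and 7.39% lower among all genes tested. The median difference was 0.04, against 0.00071 over all genes. Besides LRRC26 these were SLC12A2, which encodes a cotransporter of sodium, potassium and chloride, and ATP1B1, a subunit of the sodium-potassium pump. SLC12A2 had 12.41 and 11.63 in M3-2, 11.22 and 11.31 in M3-1, and 9.88 and 9.80 in the primary tumour, against 9.55 and 9.74 in parental cells, with the metastatic lines 3.99-fold higher than parental cells (limma adjusted p = 1.90e-06). ATP1B1 was 2.16-fold higher in the metastatic lines and 2.26-fold higher in the primary tumour than in parental cells (limma adjusted p = 0.00050 and 0.0022).

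In the primary tumour 3 genes of this list rose relative to parental cells (all genes 3.42%), and the third beside LRRC26 and ATP1B1 was FXYD3, a pump regulator, at 1.41-fold (limma adjusted p = 0.0426). HCN3, a hyperpolarisation-activated channel gene, fell by 0.43 in the metastatic lines relative to the primary tumour (limma adjusted p = 0.0245). Of 28 voltage-gated sodium and calcium channel genes on the arrays 6 were above background. CACNA2D2, an auxiliary calcium channel subunit gene, fell by 0.96 in the metastatic lines relative to parental cells (limma adjusted p = 0.000122), and SCN2A, a sodium channel gene, fell by 0.58 in the primary tumour relative to parental cells (limma adjusted p = 0.025).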

How the data were processed

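All results rest on the log2 intensities deposited by the authors, a table of 47320 probes by 8 arrays. Per the labels' protocols, biotinylated cRNA was made for Illumina arrays. Software and normalization were not given in the sources used here. The arrays share 1 distribution (median 6.40), and the lowest value is 5.32, so folds of dim genes are understated. A second table, with 16 columns whose running numbers match no label, was not used. Background was modelled as a normal distribution centred on the mode (6.12), its SD (0.184) estimated from the lower side. Probes exceeding its upper 0.01 point, 6.55, on at least 2 arrays were kept. Symbols came from GEO's platform annotation, and all 161 member probes matched RefSeq with 0 symbols changed. The brightest kept probe stood for a gene, leaving 12244 genes. Limma 3.58.1 in R 4.3.3 fitted 4 group means (4 residual degrees of freedom, 9.35 from the prior), with Benjamini-Hochberg adjustment over all genes, and was tested on simulated data. A group at or under 6.55 on every array has only a bound ("at least"), set at that level. Named were all members called in any of 4 comparisons, the brightest of each subfamily, and called genes of the partner lists. Members and lists were chosen with earlier results of these data known. The number of arrays limits the precision.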

Additional observations from a re-analysis of the deposited data

Results flagged for a closer look

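The effects of KCNG1 and KCND2 against parental cells differed between the metastatic lines, by the limma test of M3-2 against M3-1. For KCNG1 the difference was 1.55 on the log2 scale (adjusted p = 1.66e-05), with 9.05 ± 0.22 in M3-2 and 7.50 ± 0.11 in M3-1 (SD, n = 2 each), and M3-2 was higher on 2 of 2 arrays. For KCND2 it was 0.79 (adjusted p = 0.0101), with 7.11 ± 0.02 in M3-2 and 6.32 ± 0.01 in M3-1 (n = 2 each), where M3-1 was not above background. Its call was lost without any 1 of the 4 metastatic arrays. M3-2 was higher on 2 of 2 arrays.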

How the results depend on the processing

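Each comparison was repeated under 18 other settings, 8 of which left out 1 array; a group then left with 1 array is assumed to vary like the others. Of 21 calls of a gene in a comparison, 14 held under every setting that gave a value, 7 were lost under at least 1, and none changed sign. All 7 were lost without single arrays, as given above, and that of KCND2 in the metastatic lines against parental cells also with array weights (adjusted p = 0.127). Of 11 differences of these genes that did not pass, 2 passed under some setting, KCND2 in the metastatic lines against the primary tumour (adjusted p from 0.0151 to 0.0356) and KCNMB4 between M3-2 and M3-1. Without 1 array, the number of changed members ran from 2 to 5 (main 4) in the primary tumour against parental cells, from 7 to 8 (main 8) in the metastatic lines against parental cells, from 5 to 8 (main 7) against the primary tumour, and from 1 to 3 (main 2) between M3-2 and M3-1. The last was 1 among genes with a mean above 7, where fewer genes were tested, and 4 with array weights, where KCNK1 (adjusted p = 0.0445) and KCNMB4 (0.0153) also passed; the cause was not tested. With the replicate number as a block, the counts were 5, 9, 8 and 3 in the same order, adding KCNMA1 in the first (adjusted p = 0.0474), KCNC4 in the second (0.042), KCND2 in the third (0.0262) and KCNMB4 in the last (0.0385); the samples share only a number, and same-numbered deviations correlated between -0.18 and 0.52. Over all genes, the number called between the primary tumour and parental cells was 844, and 354 to 1394 without 1 array and 419 with only the groups compared. Between the metastatic lines and parental cells it was 1685, with 1492 with only the groups compared, 1088 with array weights and 1952 with the replicate block. Leaving out 1 array moved that number in either direction, depending on the array. Between the metastatic lines and the primary tumour it was 1442, with 588 to 2178 without 1 array, 2178 with only the groups compared and 2257 with array weights. Between M3-2 and M3-1 it was 302, with 94 to 492 without 1 array, 481 with only the groups compared and 548 with array weights. Differences near background are limited by the signal there.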
